A study of Homo sapiens with 4 samples.

Results

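Septin genes were identified among the rows of the event table whose symbol had been turned into a calendar date, as happens when a spreadsheet reads SEPT2 as a day in September. Rows with a symbol of a number followed by -Sep were taken, except 15-Sep, whose Ensembl identifier (ENSG00000183291) belongs to SELENOF, a selenoprotein of the endoplasmic reticulum. The identifiers of the 8 remaining rows all belonged to septins, so the genes are named here by identifier: SEPT2 (2-Sep), SEPT5 (5-Sep), SEPT6 (6-Sep), SEPT7 (7-Sep), SEPT8 (8-Sep), SEPT9 (9-Sep), SEPT10 (10-Sep) and SEPT11 (11-Sep). They are 8 of the 9885 listed genes, and 8 of the 13 septin family genes of the annotation. The other 5, SEPT1, SEPT3, SEPT4, SEPT12 and SEPT14, have no row and were not analysed here.

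The libraries came from 4 human ovarian cancer lines: A8, the HeyA8 line itself; A8i, HeyA8 with stable silencing of ECM1, an extracellular matrix protein, by a short hairpin RNA; and A8i-A and A8i-B, which are A8i cells that stably express ECM1a or ECM1b, a long and a short splice isoform of ECM1, from an added cDNA with a hemagglutinin tag. The study compared A8 with A8i, A8i-A with A8i and A8i-A with A8i-B to find what ECM1 and its isoforms alter. The silencing hairpin is therefore shared by A8i, A8i-A and A8i-B, the study's methods give lentiviral delivery and drug or GFP selection for such lines, and no library of a vector-only or scrambled-hairpin line was analysed here. Each line had 1 library, so no value below has a replicate error and no difference was tested.

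Septins are GTP-binding cytoskeletal proteins that join end to end into rods and filaments under the plasma membrane, around the cleavage furrow, at the base of protrusions and along actin and microtubule bundles. Human septins fall into sequence groups named after SEPT2, SEPT3, SEPT6 and SEPT7, and a rod is built from members of different groups in a fixed order, with SEPT7 in nearly all of them. Most septin genes are spliced into several mRNAs that differ at their ends, and SEPT9 is best known for its many N-terminal variants in tumours.

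Each gene has a whole number of events in each library. The sources used here do not state which kind of event was counted or by which program, so an event number is described below as listed, and it is not an expression level. Totals were between 20535 (A8i) and 24513 (A8) events per library, and the median gene had 1 or 2. ECM1 itself had 2 events in each of the 4 libraries, which gives no check of the silencing. Of the epithelial and ovarian carcinoma markers, 6 of 9 had a row; PAX8, a transcription factor of Müllerian epithelium, had 11 events in A8 and 7 in each other library, whereas EPCAM was listed at 0 in all 4. Summed events of that list were 21, 15, 15 and 16 in A8, A8i, A8i-A and A8i-B. The mesenchymal-like list (2 of 3 with a row, FN1 and VIM) summed to 12, 12, 13 and 13. The leukocyte and fibroblast lists reached at most 1 event in any library, and no endothelial marker had a row.

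As examples of exons that annotated transcripts of these genes include or skip, 4 coding exons of whole codon length are given from GRCh37, the assembly behind hg19. Cassette exons in the coding sequence, with a length divisible by 3 and carried by at least 2 transcripts, were found in 4 septins: SEPT2, which had the most events, SEPT10 and SEPT11, with more events in the isoform libraries than in A8i, and SEPT9, with few events for its many transcripts. A further SEPT9 exon of 192 nt met the same limits and is left out for length. Exons are in capitals, and the 20 intronic bases on either side are in lower case.
SEPT2 exon: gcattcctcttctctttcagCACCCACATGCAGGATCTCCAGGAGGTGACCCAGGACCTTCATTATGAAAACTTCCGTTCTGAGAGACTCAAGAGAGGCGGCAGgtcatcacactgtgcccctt
SEPT9 exon: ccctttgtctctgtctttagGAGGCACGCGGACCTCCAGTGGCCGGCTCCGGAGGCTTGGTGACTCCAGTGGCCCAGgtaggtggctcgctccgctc
SEPT10 exon: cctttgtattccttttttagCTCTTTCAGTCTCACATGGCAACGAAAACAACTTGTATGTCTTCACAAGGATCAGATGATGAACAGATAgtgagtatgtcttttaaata
SEPT11 exon: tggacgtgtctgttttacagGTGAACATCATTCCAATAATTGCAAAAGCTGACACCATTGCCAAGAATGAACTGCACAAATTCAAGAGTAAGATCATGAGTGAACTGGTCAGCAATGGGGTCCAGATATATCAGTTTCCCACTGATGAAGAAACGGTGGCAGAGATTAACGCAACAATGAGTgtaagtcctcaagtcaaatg
The SEPT2 exon (chr2:242285581-242285664, forward strand) is 28 codons long, is carried by 7 annotated transcripts and skipped by 1. The SEPT9 exon (chr17:75303223-75303279, forward strand) is 19 codons long, with 6 transcripts carrying and 2 skipping it. The SEPT10 exon (chr2:110350628-110350696, reverse strand) is 23 codons long, with 8 carrying and 3 skipping it. The SEPT11 exon (chr4:77936009-77936170, forward strand) is 54 codons long, with 5 carrying and 1 skipping it. Other transcripts of each gene are in neither count. Whether a skipping transcript is coding, or drops further exons, was not checked, so no change of a protein is shown. Each exon lies between an ag acceptor and a gt donor. The GC content was 71.9% in the SEPT9 exon and 39.1% in the SEPT10 exon, with 53.6% and 41.4% in those of SEPT2 and SEPT11. Whether any listed event concerns these exons cannot be read from a number per gene.

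Of the 8 septins, SEPT2 held the most events in every library, SEPT7 and SEPT10 varied most between libraries, and the others had 5 events or fewer. The septins together had 31 events in A8 (exact Poisson 95% interval 21.1 to 44) and 25 in A8i (16.2 to 36.9), with 26 in A8i-A (17.0 to 38.1) and 31 in A8i-B (21.1 to 44). These intervals, like all that follow, hold for independent events and for error of counting alone. An event number from bulk RNA does not show how many cells or how much RNA lie behind it. The sums of the 4 libraries lie inside each other's intervals.

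**Figure D1:**
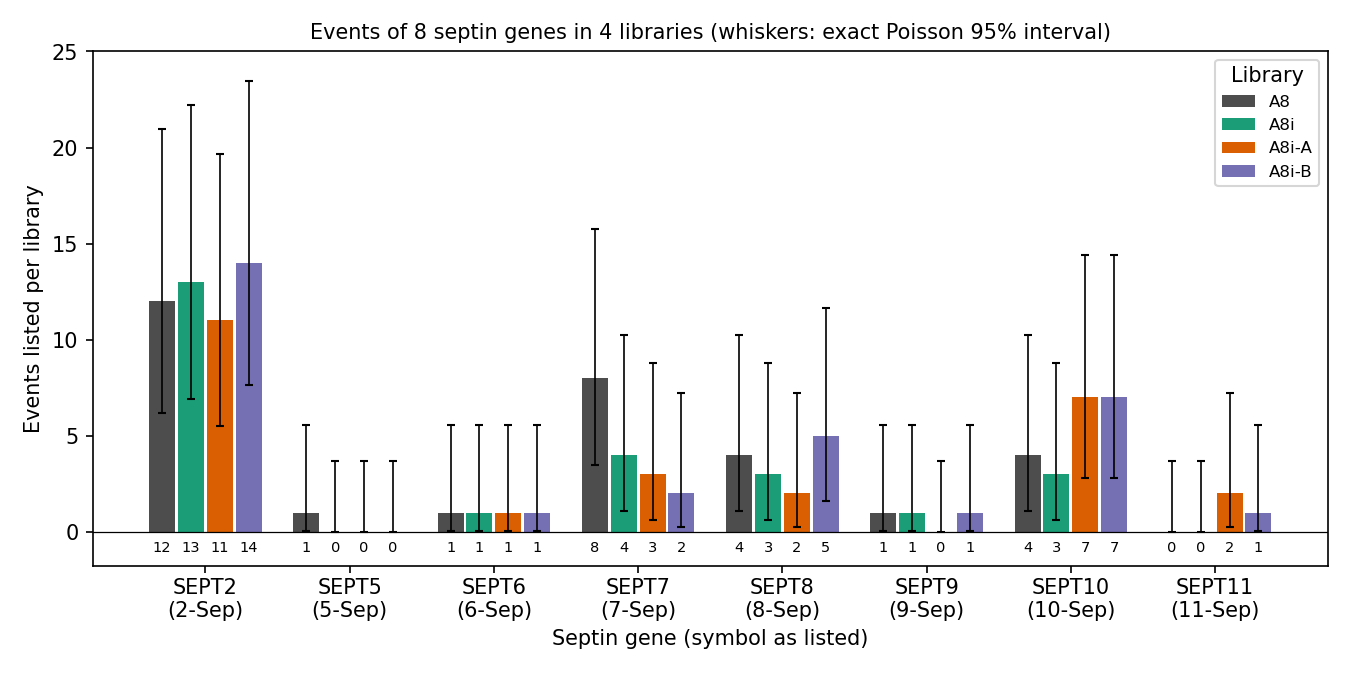
Events listed for each of the 8 septins (x axis, with the symbol as listed) in the 4 libraries; bar height and the number under each bar give the events, and whiskers the exact Poisson 95% interval. SEPT2 stands at 11 to 14 events in every library, SEPT7 is highest in A8 with 8, and SEPT10 is highest in A8i-A and A8i-B with 7 each.

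SEPT2 (ENSG00000168385, chromosome 2, 242254515 to 242293442, forward strand) encodes a septin of the cleavage furrow and of actin stress fibres. It had 12 events in A8 and 13 in A8i, with 11 in A8i-A and 14 in A8i-B. The range of 3 events is small beside the number, and A8i had 108% of the events of A8 (exact conditional Clopper-Pearson 95% interval 45.6 to 260%). SEPT2 alone made up between 38.7% (A8) and 52% (A8i) of the septin events. By number alone, few genes had as many: 144 of the 9885 listed genes reached its number in A8 (1.46%) and 76 in A8i (0.769%), with 192 in A8i-A (1.94%) and 77 in A8i-B (0.779%). Per kb of the longest annotated transcript, SEPT2 had 3.24, 3.51, 2.97 and 3.78 events in the same order, the highest of the septins in each library. Per annotated exon its place was lower. SEPT2 had 1.24, 1.34, 1.13 and 1.44 events per 10 exons, and 21.6, 14.6, 23.2 and 15.8% of the annotated genes had as many or more. On that scale SEPT7 was above it in A8, with 1.51, and SEPT10 in A8i-A and A8i-B, with 1.79 in each. HDLBP, which encodes an RNA-binding protein, overlaps SEPT2 by 1962 bases on the opposite strand and had 12, 16, 12 and 14 events, close to the SEPT2 numbers. The sources used here do not state whether strand was kept, so events of the overlap cannot be assigned to either gene.

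SEPT5 (ENSG00000184702, chromosome 22, 19702026 to 19711747, forward strand), the other listed septin of the SEPT2 group and one known from synaptic vesicle release in neurons, had 1 event in A8 and 0 in A8i, A8i-A and A8i-B. A listed 0 allows up to 3 events by counting alone, and the 1 event of A8 lies within that. Whether event numbers spread as such an interval assumes was not tested. The gene overlaps GP1BB, which encodes a platelet glycoprotein subunit, by 686 bases on the same strand, and an annotated read-through gene (ENSG00000284874) by 7005 bases, neither of which has a row, so events of these genes may be shared. In total, the SEPT2 group had 13, 13, 11 and 14 events in A8, A8i, A8i-A and A8i-B.

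SEPT6, SEPT8, SEPT10 and SEPT11 form the SEPT6 group, whose members can replace each other next to SEPT7 in a rod. Their events summed to 9 in A8 and 7 in A8i, with 12 in A8i-A and 14 in A8i-B. The A8i library was the lowest and both isoform libraries were above A8. A8i-A had 171% of the A8i events (62.2 to 514%) and A8i-B 200% (75.5 to 586%), with intervals that include 100%.

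SEPT10 (ENSG00000186522, chromosome 2, 110300376 to 110371720, reverse strand) gave most of this difference. It had 4 events in A8 and 3 in A8i, with 7 in A8i-A and 7 in A8i-B. Each isoform library thus listed 4 events more than A8i, a ratio of 233% with an exact conditional interval of 53.3 to 1398%, and the library of A8 lay between. A gain of 4 or more events was listed for 301 of 9885 genes in A8i-A (3.05%) and for 368 in A8i-B (3.72%) against A8i; these places were counted after the values had been seen. A noncoding gene (ENSG00000230696) that has no row overlaps SEPT10 by 11006 bases on the same strand, so events may be shared here too. Per kb of the longest transcript, SEPT10 had 1.29 events in A8, 0.971 in A8i and 2.26 in each of the isoform libraries.

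SEPT8 (ENSG00000164402, chromosome 5, 132086511 to 132142933, reverse strand) had 4 events in A8 and 3 in A8i, with 2 in A8i-A and 5 in A8i-B. The isoform libraries stood at either end: A8i-A had 40% of the A8i-B number (3.81 to 244%). CCNI2 overlaps SEPT8 by 3585 bases on the opposite strand and has no row in the table. SEPT11 (ENSG00000138758, chromosome 4, 77870904 to 77961537, forward strand), a septin of dendritic spines and of bacterial entry sites, had 0 events in A8 and A8i but 2 in A8i-A and 1 in A8i-B. These numbers are all within the 3 events that a 0 allows. SEPT6 (ENSG00000125354, chromosome X, 118749687 to 118827333, reverse strand), the member that gave the group its name, had 1 event in each of the 4 libraries.

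SEPT9 (ENSG00000184640, chromosome 17, 75276651 to 75496678, forward strand), of the SEPT3 group, had 1 event in A8 and 1 in A8i, with 0 in A8i-A and 1 in A8i-B. It is the septin with the most annotated transcripts, 48, of which 29 are coding, and has 105 distinct annotated exons. SEPT2, with 45 transcripts and 97 exons, had between 11 and 14 events. SEPTIN9-DT (ENSG00000263718), a divergent noncoding transcript that overlaps SEPT9 on the other strand by 1486 bases, had 2 events in A8i-A and 0 elsewhere. Among further genes that overlap SEPT9, ENSG00000267263 (1978 bases) and ENSG00000279801 (2464 bases) lie on the same strand. Neither has a row, so events may be shared with SEPT9 as well.

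SEPT7 (ENSG00000122545, chromosome 7, 35840542 to 35946720, forward strand), the septin that links the groups in a rod, had 8 events in A8 and 4 in A8i, with 3 in A8i-A and 2 in A8i-B. The parental library was highest, and both isoform libraries were below A8i. A8i had 50% of the A8 number (11.0 to 187%), A8i-A 37.5% (6.41 to 156%) and A8i-B 25% (2.59 to 125%), intervals that all include 100%. These ratios share the A8 library. By the number of genes that lost as many events or more, SEPT7 was among 393 (3.98%) from A8 to A8i, 152 (1.54%) from A8 to A8i-A and 75 (0.759%) from A8 to A8i-B, counted after its values had been seen. The shares are of all listed genes, and only 2324 of them had the 4 or more events in A8 that a loss of 4 needs. SEPT7 started high, among 541 genes with 8 or more events in A8. The shares therefore do not set it beside genes of a similar start. Per kb of the longest transcript, SEPT7 had 1.13 events in A8 and 0.566 in A8i, with 0.425 in A8i-A and 0.283 in A8i-B.

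Among the 8 septins with a row, SEPT7 also has the most annotated copies in the genome. For it 17 pseudogene symbols are annotated, against 1 each for SEPT2 and SEPT10 and 0 for the other 5. In the table, 3 of these copies have a row of their own, and none of them carries a date symbol. They are SEPTIN7P2 (listed as SEPT7P2, ENSG00000214765, chromosome 7, 45776386 to 45805411, reverse strand), SEPTIN7P13 (listed as RP11-504P24.3, ENSG00000185495, chromosome 1, 224183597 to 224191356, forward strand) and SEPTIN7P14 (listed as RP11-33B1.1, ENSG00000245958, chromosome 4, 120379123 to 120383019, forward strand), all annotated as transcribed unprocessed pseudogenes. They were looked up after the SEPT7 values had been seen. The annotated SEPTIN7P2 transcript aligned to the SEPT7 mRNA over 829 positions with 95.1% identity, SEPTIN7P13 over 341 positions with 95.6% and SEPTIN7P14 over 344 positions with 89.2%, gaps counted.

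A window of 100 bases shows how alike the copies are. It starts at base 325 of the SEPT7 reference mRNA, the first base to which all 3 copies align, and lies within 1 exon in each gene. Bases that differ from SEPT7 are in capitals.
SEPT7: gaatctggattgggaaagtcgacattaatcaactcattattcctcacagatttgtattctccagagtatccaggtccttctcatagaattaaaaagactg
SEPTIN7P2: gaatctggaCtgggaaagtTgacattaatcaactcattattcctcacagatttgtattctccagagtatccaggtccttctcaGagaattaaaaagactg
SEPTIN7P13: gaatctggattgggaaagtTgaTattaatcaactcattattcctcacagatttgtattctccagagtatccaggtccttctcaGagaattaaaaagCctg
SEPTIN7P14: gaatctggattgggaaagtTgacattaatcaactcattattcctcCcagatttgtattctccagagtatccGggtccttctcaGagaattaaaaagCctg
In GRCh37 the window is chr7:35903164-35903263 in SEPT7 (forward strand), chr7:45805310-45805409 in SEPTIN7P2 (reverse), chr1:224183599-224183698 in SEPTIN7P13 (forward) and chr4:120379128-120379227 in SEPTIN7P14 (forward). SEPTIN7P2 differs from SEPT7 at 3 of the 100 bases, SEPTIN7P13 at 4 and SEPTIN7P14 at 5. How reads from this window were placed was not tested, so the split of events between SEPT7 and its copies is uncertain.

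The copies differed in which library was highest. SEPTIN7P2 had 9 events in A8 and 10 in A8i, with 17 in A8i-A and 8 in A8i-B. A8i-A was the highest library, at 170% of the A8i number (73.5 to 415%), 213% of the A8i-B number (86.9 to 569%) and 189% of the A8 number (79.6 to 481%), with intervals that all include 100%. A gain of 7 or more events against A8i was listed for 55 genes (0.556%), and 27 genes had 17 or more events in A8i-A. SEPTIN7P2 has 1 annotated transcript of 823 nt with 8 exons, and its mean of 11 events was reached by 2 of the 231 listed pseudogene rows, itself included, whose median was 1. SEPTIN7P13 had 6 events in A8 and 1 in each other library, and SEPTIN7P14 had 4, 2, 3 and 3 in A8, A8i, A8i-A and A8i-B.

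Added to its copies, SEPT7 had 27 events in A8 and 17 in A8i, with 24 in A8i-A and 14 in A8i-B. SEPT7 itself held 29.6% of them in A8 (exact Clopper-Pearson 95% interval 13.8 to 50.2%) and 23.5% in A8i (6.81 to 49.9%), with 12.5% in A8i-A (2.66 to 32.4%) and 14.3% in A8i-B (1.78 to 42.8%). On the sum, A8i-A lay at 141% of A8i (72.7 to 280%), whereas on the SEPT7 row alone it lay at 75% (11.0 to 443%). The order of A8i and A8i-A therefore turns with the treatment of the copies, and that of A8i below A8 does not, at 63.0% (32.2 to 120%).

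**Figure D2:**
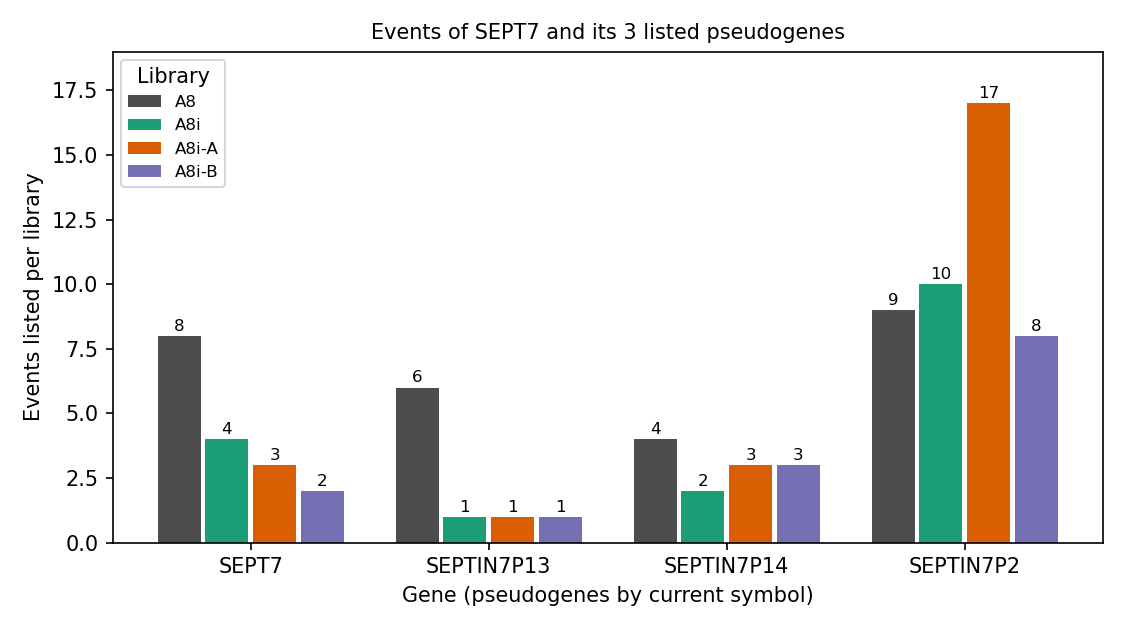
Events listed for SEPT7 and for its 3 pseudogenes with a row (x axis) in the 4 libraries, with the number over each bar. SEPT7 and SEPTIN7P13 are highest in A8, with 8 and 6 events, and SEPTIN7P2 is highest in A8i-A, with 17.

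The libraries were then compared over all septins, with the question of each pair as above. A septin was counted as apart when events + 1 differed at least 2-fold in either direction, and also when the numbers differed by at least 2 events. Several of the first kind of call rest on a step from 0 to 1 or from 1 to 0. With 1 library a line, such a count describes a pair of libraries. Shares over all listed genes are for unscaled events and are no background for the counts after scaling to the mean total.

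From A8 to A8i, which asks what silencing of ECM1 goes with, 1 of 8 septins was at least 2-fold apart, SEPT5, against 28.9% of all listed genes (0 with the libraries scaled to the mean total), and 1 was at least 2 events apart, SEPT7, against 23.5%. Septin events in A8i were 80.6% of those in A8 (45.7 to 141%), and the events of all genes 83.8% (82.2 to 85.3%). The lower septin sum of A8i went with a lower total of the whole library. Fewer events were listed in A8i for 4 septins, more for 1 and as many for 3. The same split over all listed genes was not computed, so these counts have no background.

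From A8i to A8i-A, which asks what goes with added ECM1a, 3 of 8 septins were at least 2-fold apart, with SEPT10 and SEPT11 higher and SEPT9 lower, against 29.2% of all genes. By the limit of 2 events, 3 were apart, with SEPT10 and SEPT11 higher and SEPT2 lower, against 21.8%. The septin sum was 104% of that of A8i (57.7 to 188%), and that of all genes 110.5% (108.4 to 112.6%). From A8i to A8i-B, 2 of 8 were at least 2-fold apart, SEPT10 and SEPT11, both higher, against 29.6%, and 0 were after scaling of the libraries to the mean total. By 2 events, 3 were apart, SEPT8 and SEPT10 higher and SEPT7 lower, against 23.8%. The septin sum was 124% (70.9 to 219%) beside 118% (115.8 to 120.2%) over all genes. Both comparisons share the A8i library, so SEPT10 and SEPT11 stood higher in both against the same 3 and 0 events.

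Between the isoforms, A8i-A against A8i-B, 2 of 8 septins were at least 2-fold apart, SEPT8 and SEPT9, both lower in A8i-A, against 27.9% of all genes, and 0 were after the same scaling. At least 2 events apart were also 2, SEPT2 and SEPT8, both lower in A8i-A, against 23.3%. The septin sum of A8i-A was 83.9% of that of A8i-B (47.8 to 146%), and that of all genes 93.6% (91.9 to 95.3%). SEPT10 had the same number in both.

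Against A8, A8i-A had 4 of 8 septins at least 2-fold apart (background 27.5%), of which SEPT5, SEPT7 and SEPT9 were lower and SEPT11 higher, and 4 at least 2 events apart (22.9%). A8i-B had 3 of 8 (26.8%), with SEPT5 and SEPT7 lower and SEPT11 higher, and 3 at least 2 events apart (23%). The septin sums were 83.9% (47.8 to 146%) and 100% (58.8 to 170%) of that of A8. Whether the septin share lay above or below its background depended on the limit. By the 2-fold limit it lay below for A8i against A8, A8i-B against A8i and A8i-A against A8i-B, and above for the other 3 pairs, whereas by the limit of 2 events it lay below for A8i against A8 and above for the other 5. With libraries scaled to the mean total of events, the 2-fold counts of the 6 pairs, in the order given, became 0, 2, 0, 0, 2 and 1. The share of all listed genes under this scaling was not computed, so these counts have no background.

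**Figure D3:**
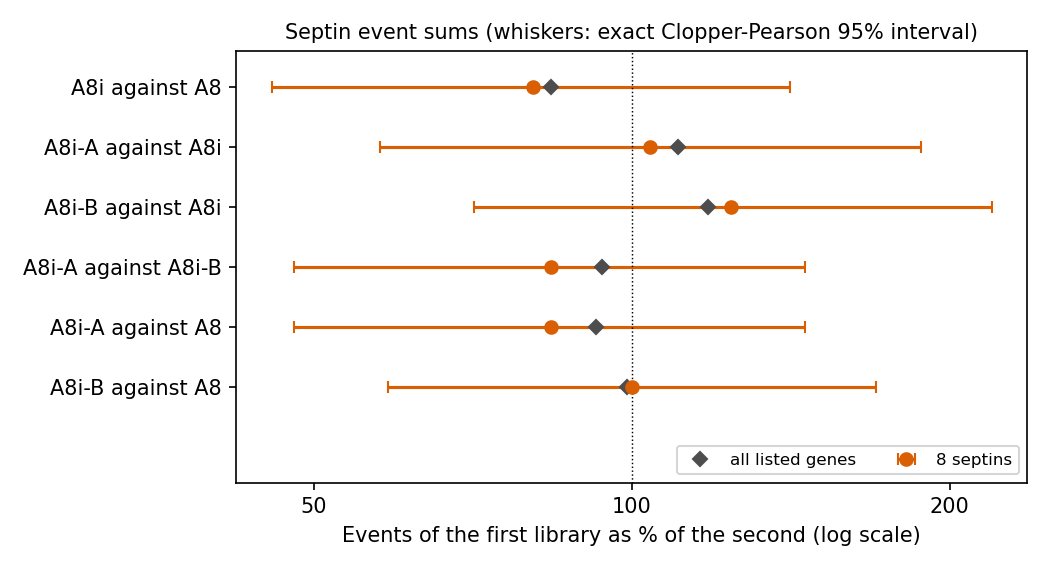
Summed events of the 8 septins in one library as a percentage of another, on a log axis, for 6 pairs of libraries (circles, with whiskers for the exact conditional Clopper-Pearson 95% interval), beside the same ratio over all listed genes (diamonds). Every septin interval spans 100% and holds the all-gene ratio.

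The number of annotated isoforms goes some way with the number of events. Over the 9818 listed genes that matched the annotation, the mean event number of a gene had a Spearman rho of 0.47 with its annotated transcripts, 0.43 with its exons, 0.40 with its cassette exons and 0.02 with the length of its longest transcript. These are descriptions across genes that share the same 4 libraries. Set beside genes whose number of transcripts lay within 20% of their own, the septins fell on both sides. SEPT2, with a mean of 12.5 events, was reached or passed by 20 of 246 such genes (8.13%), whose median was 3. SEPT10, with 14 transcripts and a mean of 5.25, was reached or passed by 254 of 1731 (14.7%), whose median was 2.25.

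Other septins were low for the annotation used here, which need not be the one on which events were counted. SEPT9, with a mean of 0.75 events, stood where 23 of 198 genes with a similar number of transcripts were as low or lower (11.6%), beside a median of 3.25. SEPT5, with 13 transcripts and a mean of 0.25, had 142 of 1899 such genes as low or lower (7.48%), and SEPT11, with 16 and 0.75, had 272 of 1827 (14.9%). SEPT7 (19 transcripts, mean 4.25), SEPT8 (16, mean 3.5) and SEPT6 (9, mean 1) lay within the middle of their sets, from 38.3 to 68.8% of which were as low or lower.

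**Figure D4:**
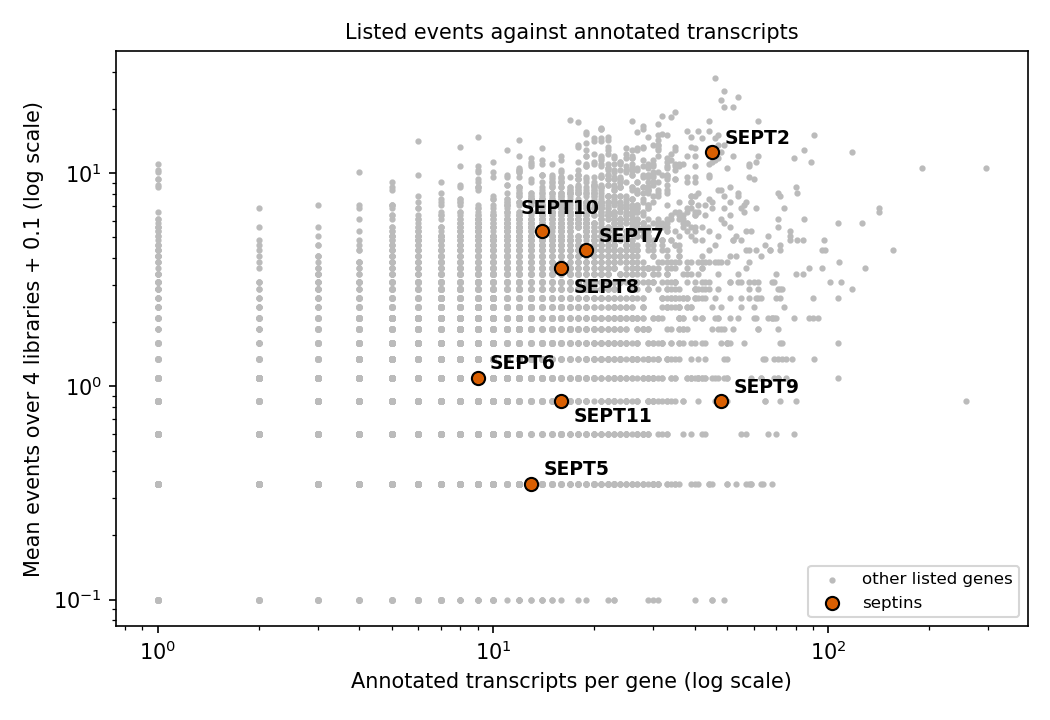
Mean events over the 4 libraries plus 0.1 (y axis, log scale) against annotated transcripts per gene (x axis, log scale) for the 9818 listed genes with an annotation (grey) and the 8 septins (orange). SEPT2 and SEPT9 have 45 and 48 transcripts and means of 12.5 and 0.75 events.

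The profile of a gene over the 4 libraries was compared with all others by the sum of absolute differences in events. The gene most like SEPT10 was DDX47, an RNA helicase of ribosome biogenesis, with the same 4 numbers. SEPT7 was nearest to HERC2P3, a pseudogene, with a difference of 1 event in all. SEPT2 was nearest to KLC1, a kinesin light chain, and RPS15, a ribosomal protein, each 3 events away. The low profiles were common: 797 other genes had 1 event in every library like SEPT6, 350 had the profile of SEPT5, 110 that of SEPT9 and 19 that of SEPT11, and 19 genes lay 1 event from SEPT8.

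Genes that work with septins were taken from 5 lists of 57 genes, of which 43 had a row. CDC42EP proteins (Borg proteins), which bind septins downstream of the GTPase CDC42, had few events: CDC42EP3 had 2 in A8 and 0 in A8i, with 1 in A8i-A and 0 in A8i-B. CDC42 itself had 2 in each library. With 4 of 6 genes listed, their sums were 4, 2, 4 and 3. In the contractile ring list, ANLN, the anillin scaffold that recruits septins to the furrow, had 2 events in each library, and 14 of 17 genes had a row with 48, 48, 47 and 46 events in A8, A8i, A8i-A and A8i-B. MYH9, a nonmuscle myosin heavy chain that binds septins through SEPT2, had 1 event in A8 and 0 elsewhere. ROCK2 had 1 event in A8i and 0 elsewhere.

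The central spindle list, whose proteins position the furrow, had 8 of 11 genes with a row and 48, 41, 49 and 55 events. A8i was lowest by number, whereas as a share of all events of the library A8 was lowest, with 0.1958% beside 0.1997% (A8i), 0.216% (A8i-A) and 0.227% (A8i-B). BIRC5, which encodes survivin, had 11 events in A8 and 5 in A8i, with 11 in A8i-A and 8 in A8i-B. RACGAP1, a subunit of centralspindlin, had 7, 5, 4 and 9. AURKB, the kinase that works with survivin, was highest in A8i, with 8 events beside 6 in each other library. Abscission genes (10 of 14 with a row) had 10, 13, 13 and 18 events. SPAST, the microtubule-severing enzyme spastin, had 3 events in A8i-B and 1 in each other library. PDCD6IP had 2, 1, 1 and 3, and CHMP2B, highest in A8i, had 1, 3, 2 and 1. Exocyst genes (7 of 9), whose complex tethers vesicles and meets septins at the midbody, had 15, 13, 17 and 16. EXOC2 had 2 events in A8 and 0 elsewhere, EXOC6 had 2 in A8i-A and 0 elsewhere, and EXOC7 had 6, 7, 10 and 11.

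Over the 43 partner genes with a row, 6 were at least 2-fold apart from A8 to A8i, 4 with fewer and 2 with more events. From A8i to A8i-A there were 7, of which 6 had more, from A8i to A8i-B 7, of which 5 had more, and between A8i-A and A8i-B 7, of which 3 were higher in A8i-A. These are 14% in the first comparison and 16.3% in each of the others, beside the 27.9 to 29.6% of all listed genes given above. Those shares count both directions together. Gains and losses were not counted separately over the whole list, so the directions of the partner genes have no background. Library totals also differed, with 20535 events in A8i, 22691 in A8i-A, 24236 in A8i-B and 24513 in A8. Whether the partner directions go beyond these totals was not tested. The median log2 ratio of events + 1 was 0 in all 4 comparisons, for the partner genes and for all listed genes.

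Date symbols were not limited to septins. Besides the 8 septins and 15-Sep, 7 rows had a number followed by -Mar, and 2-Mar stood for 2 genes: MARCHF2 (ENSG00000099785), a ubiquitin ligase, had 3, 3, 3 and 5 events in A8, A8i, A8i-A and A8i-B, and MTARC2 (ENSG00000117791), a mitochondrial amidoxime reductase, had 3, 0, 2 and 1. SELENOF, listed as 15-Sep, had 3, 3, 2 and 3. A search by symbol would therefore miss the septins and merge 2 unrelated genes under 2-Mar, whereas identifiers keep them apart.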

How the data were processed

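RNA-seq of 4 cell lines with 1 library each was analysed. According to the methods, the authors isolated RNA with TRIzol, trimmed reads with Trim Galore, checked them with FastQC, mapped them to hg19 with TopHat and estimated expression with Cufflinks 2.2.1. The submitters' processing notes name GRCm38, a mouse build, whereas all identifiers used here are human. The deposited values are unscaled whole numbers of events per gene, from 0 to 32, and the program that counted them is not given in the sources used here. No column of per-sample values was left unused (0).

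Rows were chosen by symbol and checked by Ensembl identifier; the rule found 8 septins, of which 6 had been named when the work was laid out. Members, lists and limits were chosen with earlier results of these data known. By rule, named genes are all septins, their nearest profiles where 5 or fewer genes tied, and, from the lists, some of the genes at least 2-fold apart from A8 to A8i or between A8i-A and A8i-B. Outside it, and after values were seen, ANLN, CDC42, AURKB, EXOC7, PAX8, EPCAM, FN1, VIM, ECM1, genes that overlap a septin, the SEPT7 pseudogenes and other date symbols were added. SEPT2 places per exon use genes with an annotation. The annotation on which the events were counted is not given in the sources used here. Coordinates and transcripts are those of GENCODE v44 lifted to GRCh37, which matched 9818 of 9885 genes. A cassette exon is an internal exon that lies inside an intron of another transcript. Pseudogene transcripts were aligned with blastn 2.17.0. Intervals are exact at 95% (Poisson for sums, Clopper-Pearson conditional on the sum of both numbers for ratios), and a 0 allows up to 3 events. The methods give a total yield of paired-end sequence data, but the depth in reads behind each value is unknown. Computations used Python 3.11.15, numpy 2.4.6, pandas 2.3.3, scipy 1.17.1 and matplotlib 3.10.9, and were tested on simulated numbers.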

Additional observations from a re-analysis of the deposited data

How the results depend on the processing

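Alternatives without 8-Sep and 9-Sep and with the SEPT7 pseudogenes added were chosen after seeing the data. The share of all listed genes at least 2-fold apart was not computed with scaled libraries. With each library scaled to the mean total of events, the number of septins at least 2-fold apart went from 1 to 0 for A8i against A8, from 2 to 0 for A8i-B against A8i, from 2 to 0 for A8i-A against A8i-B, from 4 to 2 for A8i-A against A8 from 3 to 1 for A8i-B against A8 and from 3 to 2 for A8i-A against A8i, where most of the septins counted as apart stood exactly at 2-fold. The septin ratios stayed within their intervals under every alternative run, and some changed side of 100%: A8i-A against A8i lay between 86.4% (without SEPT10) and 125% (without SEPT2), and at 94.1% after scaling. A8i-B against A8 lay at 126% without SEPT7 and at 88.9% without SEPT10. A8i against A8 lay between 63.2% (without SEPT2) and 96.3% (after scaling), and A8i-A against A8 reached 100% without SEPT7. For SEPT7, adding its pseudogenes took A8i-A against A8i from 75 to 141%. No paired analysis was possible because each line has 1 library. The number of reads behind each event limits all of these values and is unknown.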
